A study of Drosophila melanogaster with 4 samples.

Results

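Expression of the D168A form of the kinase Tao in pole cells was examined on 2 of the 4 arrays of the series, those whose titles name D168A and pole cells. The labels call D168A a dominant-negative form. On these arrays, pole cells from embryos of nosGal4:VP16/nosGal4:VP16 mothers (driven) were set against pole cells from embryos of yw mothers (non-driven). The fathers of both kinds of embryo carried UAS-tao-1(D168A) and EGFP-Vas, so the transgene and the germ-line marker were present in driven and non-driven cells alike. Embryos were at stages 8 to 14, the cells were isolated by FACS on EGFP-Vas, and each labelling by linear amplification started from 100 ng of total RNA. The array with driven RNA in Cy3 and the array with driven RNA in Cy5 are numbered alike in their titles, and the design names 1 driven and 1 non-driven source. The pair was therefore counted as 1 replicate, measured with the dyes exchanged. The other 2 arrays hold the same contrast for the form D168D. The titles of those arrays call it gof, while the title of the series speaks of a wild-type form, and D168D as written changes no residue.

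Tao is a kinase of the Ste20 family. In Drosophila it phosphorylates and activates Hippo, which restrains growth through Warts and the co-activator Yorkie, and it also acts on microtubule dynamics. Pole cells are the precursors of the germ line: they form at the posterior end of the embryo, take up the germ plasm with its maternal RNAs, and later move through the midgut wall to the gonads. The nosGal4:VP16 driver places the transcriptional activator Gal4:VP16 under the control of nanos, a gene active in the female germ line, so the activator reaches the embryo from the mother.

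Values are ratios of driven to non-driven RNA on the log2 scale, on which 1 is a doubling, and the value after ± is how far each array of the pair lies from their mean. It covers hybridisation and dye only, and with 1 replicate no test within D168A is possible. A gene was called higher or lower where both arrays passed a given fold on the same side, with 2-fold as the main threshold and 1.5-fold (0.58 on the log2 scale) as a wider one. The genotype of the mothers differs between driven and non-driven cells in the same way as transgene expression does, and the 2 cannot be told apart. RNA was measured in bulk, so fewer cells of a type and less RNA per cell cannot be told apart either. In all, 10804 genes were measured, 5273 of them by a single probe.

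The arrays agreed on few genes. At least 2-fold on both, 16 genes were higher in driven cells (0.148% of those measured) and 1 was lower (0.00926%). At least 1.5-fold on both, 54 were higher (0.5%) and 8 lower (0.074%). On the array with driven RNA in Cy3, 42 genes were at least 2-fold higher, and 28 of these were above 0 on the other array too, with a median there of 0.73. On the array with driven RNA in Cy5, 214 genes were at least 2-fold higher, but 127 of them were below 0 on the other array and their median there was -0.11. Among genes at least 2-fold lower, 1 of 24 on the Cy3-driven array and the same 1 of 51 on the Cy5-driven array passed on the other. Over all genes, 24.4% were above 0 on both arrays and 21.5% below 0 on both, and the Pearson correlation across genes, which are no replicates, was -0.10. The spread over genes was wider on the Cy5-driven array (SD 0.356) than on the Cy3-driven one (SD 0.238).

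**Figure D1:**
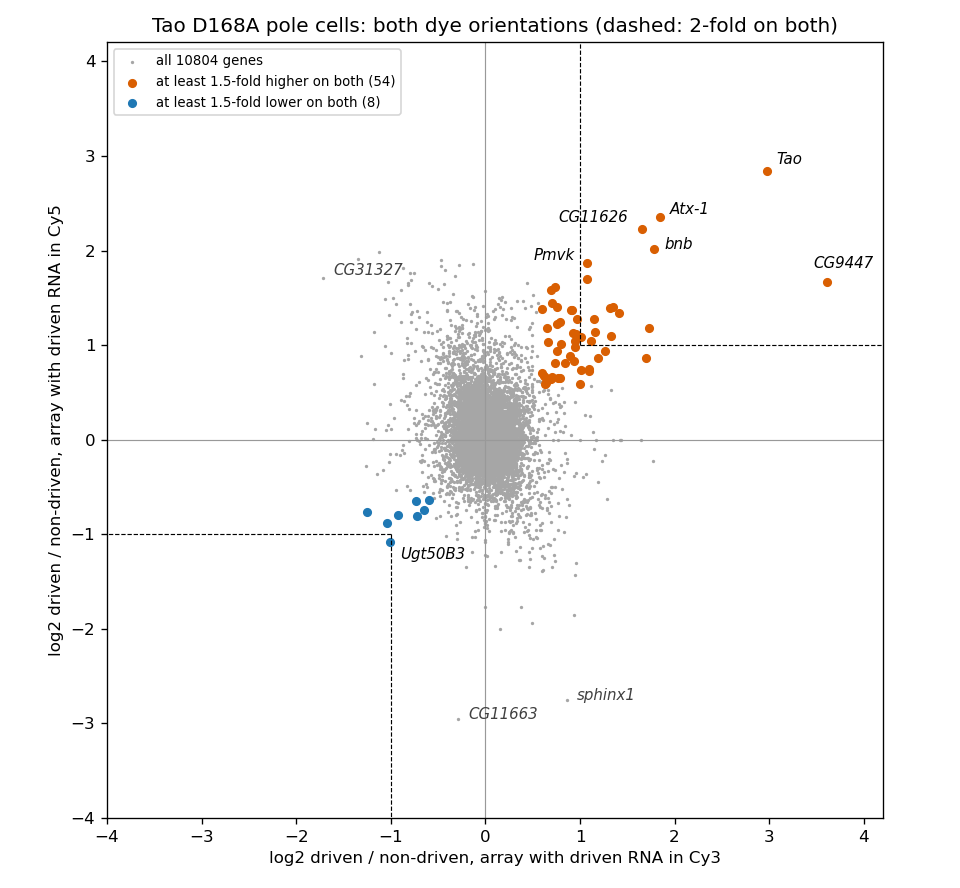
Each point is a gene, with its log2 ratio of driven to non-driven RNA on the Cy3-driven array (horizontal) and the Cy5-driven array (vertical); dashed lines mark 2-fold on both. The 54 genes at least 1.5-fold higher on both arrays are orange and the 8 lower ones blue. Tao stands apart at the upper right, while most genes form a cloud with no diagonal.

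Tao (NCBI Gene 32948, chromosome X), the gene that the transgene encodes, was at 2.98 on the Cy3-driven array and 2.84 on the Cy5-driven array, a 7.5-fold difference. It had the highest mean and the highest value on its weaker array of all 10804 genes. Its 2 probes gave 3.05 and 2.80, and 2.91 and 2.88, so they lie close to each other in both dye orientations. With D168D the same gene was at 3.04 and 2.99. The direction of the deposited ratios is not stated beside them and was read as driven over non-driven partly from the sign of this gene, so its positive sign is no check of the labels. Whether these probes see the transgene, the endogenous transcript or both is not known here.

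Among the other 15 genes at least 2-fold higher with D168A, 8 were above 0 on both D168D arrays as well (23.3% of all genes were). Each is given with the Cy3-driven array first. The D168A arrays put Atx-1, the fly relative of the human ataxin 1 gene, at 1.84 and 2.35, and the D168D arrays put it at 3.13 and 1.80. They put bnb at 1.79 and 2.02, against 1.97 and 1.93 for D168D, close together on all 4 arrays. Sod3, which encodes an extracellular superoxide dismutase, was at 1.35 and 1.40 and, with D168D, at 1.56 and 1.67. These 3 genes passed 2-fold on every array of the series, as did Tao, Pmvk and CG6287. Lig encodes Lingerer, a ubiquitin-associated domain protein that works with RNA-binding partners in growth control, and its values were 1.32 and 1.40, against 0.88 and 1.17 for D168D. GstE1, a glutathione S-transferase of the epsilon class, had 1.33 and 1.10, against 0.92 and 1.25 for D168D. Pmvk, the phosphomevalonate kinase of isoprenoid synthesis, had 1.07 and 1.87, against 1.93 and 1.34 for D168D. The first 2 of these 3 genes missed 2-fold on the Cy3-driven D168D array. For CG6287 the D168A values were 1.07 and 1.70 and the D168D values 1.26 and 2.004. CG32488, the gene just inside the 2-fold threshold, had 1.01 and 1.09, and only 0.32 and 0.17 for D168D.

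The other 7 of the 16 genes had no common direction with D168D. CG9447 had the highest mean after Tao, 2.64 ± 0.97, but its arrays lay far apart, at 3.61 on the Cy3-driven and 1.67 on the Cy5-driven one, and its D168D values were 0.97 and -0.14. CG11626 was at 1.66 and 2.23, against 0.38 and -1.85 for D168D. Qsox3, a quiescin sulfhydryl oxidase of the kind that forms disulfide bonds in secreted proteins, was at 1.42 and 1.34, against -0.60 and 0.61 for D168D. For these 3 genes the D168D arrays contradicted each other. CG10384, at 1.74 and 1.18, had D168D values of -0.02 and -0.32. Gr98b, a member of the gustatory receptor family, had 1.15 and 1.27, against -0.34 and -0.41 for D168D. These 2 genes were below 0 on both D168D arrays while above 2-fold on both D168A arrays. CG15353 (1.16 and 1.14) and CG7653 (1.11 and 1.05) were at -0.07 and 0.28 on the Cy5-driven D168D array. On the Cy3-driven D168D array both were listed at exactly 0, as were 583 of all 22575 features. Whether such zeros are measured ratios is not known here. Each form is 1 replicate, so the differences between forms have no test, and the genes were chosen by their D168A values. Each of these 7 genes rested on 1 probe. Some of these probes have close numbers on the platform, as for Qsox3 (3759) and CG7653 (3757), and Gr98b (5680) and CG15353 (5689). The probes of CG9447 (719) and CG11626 (489) lie close to those of CG30033 (718) and CG4714 (487), also called higher at 1.5-fold. Whether the numbers follow position on the array, and whether position bears on these values, was not tested. Once the dye difference seen with D168D is subtracted from the D168A arrays, CG11626, Qsox3 and CG7653 of these 7, and GstE1, Pmvk and CG32488 of the others, miss 2-fold.

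**Figure D2:**
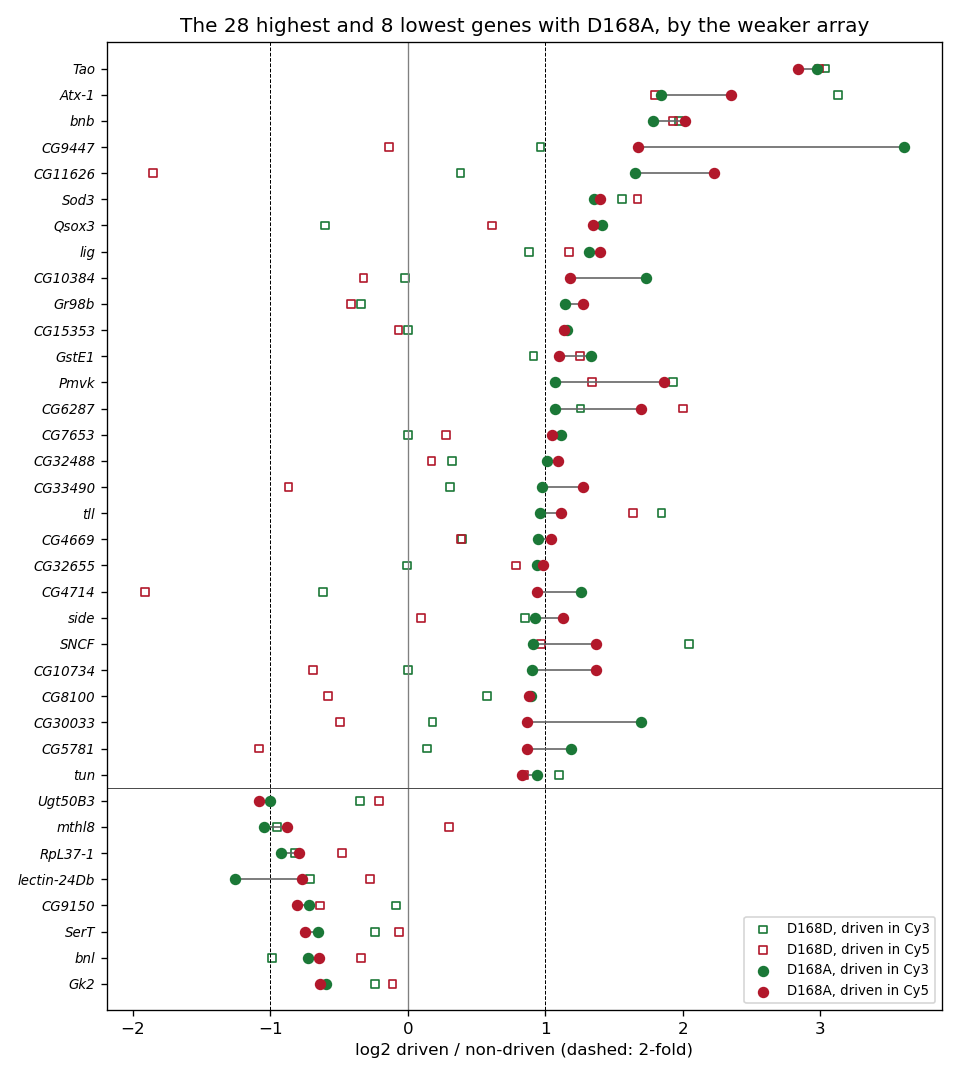
For the 28 highest genes and the 8 lowest genes with D168A, ordered by the array nearer 0, filled circles give the log2 ratio on each D168A array and open squares on each D168D array, green with driven RNA in Cy3 and red in Cy5. Dashed lines mark 2-fold. Tao, Atx-1, bnb, Sod3, Pmvk and CG6287 lie beyond 2-fold on all 4 arrays, whereas CG11626, CG4714 and CG5781 lie to the right with D168A and beyond -1 on a D168D array.

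Of the 54 genes past 1.5-fold upwards on both D168A arrays, 26 (48.1%) were above 0 on both D168D arrays and 3 were below 0 on both, against 23.3% and 24.1% of all genes. Their median was 1.03 with D168A and 0.26 with D168D. The genes were chosen by their D168A values, so a higher median with D168A is built into the choice. With D168D, 16 of the 54 passed 1.5-fold upwards on both arrays, as did 83 of all 10804 genes. The forms used separate driven and non-driven cells, but the mothers of the driven embryos carried the same driver, and the mothers of the non-driven embryos were yw, in both.

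Probes of the same gene did not always agree. Of the 16 genes at least 2-fold higher, 10 were measured by 1 probe. Among the 6 with several probes, Tao and bnb passed 2-fold with every probe, and Sod3 passed 1.5-fold with both, at 1.97 and 1.66 and at 0.73 and 1.14. The remaining 3 rested on 1 of their probes. One probe of lig gave 2.39 and 2.87 while the other gave 0.25 and -0.08. For Pmvk the probes gave 2.35 and 3.73 against -0.20 and -0.00, and for CG6287 they gave 2.55 and 3.79 against -0.41 and -0.40. In each of these 3 genes, both arrays thus show the same split between probes. No probe sequence was used here, so it is not known which exons or isoforms the probes meet.

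**Figure D3:**
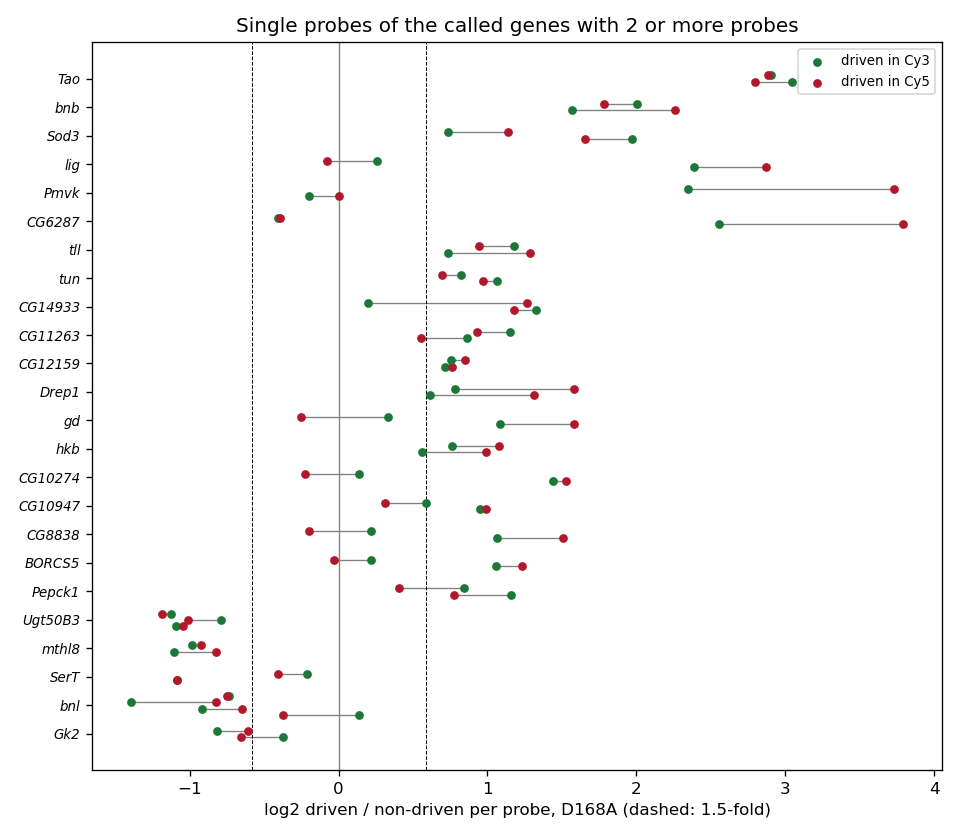
Each line joins the 2 D168A arrays of 1 probe (green with driven RNA in Cy3, red in Cy5) for the called genes that have 2 or more probes, on the log2 scale. The probes of Tao, bnb, tll, tun, Drep1 and Ugt50B3 lie together, while those of lig, Pmvk and CG6287 lie far apart.

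Just below 2-fold lay 12 further genes that were named by their value on the weaker array. CG33490, the gene just outside, was at 0.97 and 1.28. The gene tll encodes a nuclear receptor that specifies the ends of the embryo downstream of the receptor kinase Torso. It was at 0.96 and 1.11, against 1.85 and 1.64 for D168D, and both its probes were above 0.58 on both D168A arrays (0.74 and 1.29, 1.18 and 0.94). The gene side, for the axon guidance protein Sidestep, was at 0.92 and 1.13, SNCF at 0.91 and 1.37, and tun at 0.94 and 0.83. SNCF and tun were also above 0.8 on both D168D arrays, whereas side was at 0.85 and 0.10 there. The other 7 were CG4669, CG32655, CG4714, CG10734, CG8100, CG30033 and CG5781, with D168A means from 0.89 for CG8100 to 1.28 for CG30033. Of these, CG4714 had the opposite direction on both D168D arrays, at -0.62 and -1.91 against 1.26 and 0.94 with D168A.

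Others of the 54 that carry a known role were picked after their values were seen. Drep1, of the DNA fragmentation factor family that holds the apoptotic nuclease and its inhibitor, was at 0.70 and 1.45, and its D168D values were 1.86 and 1.92. The gene hkb encodes the other terminal gap factor beside tll and was at 0.66 and 1.03, with 1 of its 2 probes just short of 1.5-fold on the Cy3-driven array (0.56). For gd, a serine protease at the head of the dorsoventral cascade, the gene was at 0.71 and 0.66, but its probes gave 1.09 and 1.58 against 0.33 and -0.25. Pepck1, the enzyme that commits oxaloacetate to glucose synthesis, was at 1.001 and 0.59, with 1 of its 2 probes short of 1.5-fold on the Cy5-driven array (0.41). Cyp12b2, a cytochrome P450, was at 0.63 and 0.59, ppk21, of the pickpocket sodium channel family, at 0.60 and 0.71, and BORCS5, a subunit of the complex that positions lysosomes, at 0.64 and 0.60, through 1 of its 2 probes (1.06 and 1.23 against 0.22 and -0.03). These last 4 lie close to the 1.5-fold threshold on at least 1 array.

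Few genes were lower in driven cells with D168A, 8 at 1.5-fold on both arrays. Ugt50B3, a UDP-glycosyltransferase, which couples sugars to small molecules, was at -1.003 and -1.08, and was the only gene at least 2-fold lower. Its 3 probes gave -1.10 and -1.04, -0.79 and -1.01, and -1.13 and -1.18, so all lay on the same side and 1 missed 2-fold on the Cy3-driven array. Its call at 2-fold is lost once the dye difference seen with D168D is subtracted. The receptor gene mthl8, of the Methuselah family, was at -1.04 and -0.88, and both its probes passed 1.5-fold. RpL37-1, for a protein of the large ribosomal subunit, was at -0.92 and -0.79, and lectin-24Db, for a C-type lectin, at -1.25 and -0.77. CG9150 was at -0.72 and -0.81. SerT, the serotonin transporter gene, was at -0.65 and -0.75, with 1 probe at -1.09 on both arrays and the other at -0.21 and -0.41. The FGF ligand gene bnl, which guides tracheal branches, was at -0.73 and -0.65, and 3 of its 4 probes passed while the fourth gave 0.13 and -0.37. Gk2, a glycerol kinase, was at -0.60 and -0.63, with 1 of its 2 probes short of 1.5-fold on the Cy3-driven array (-0.38). With D168D, 7 of the 8 were below 0 on both arrays (24.1% of all genes were), with a median of -0.34. Of the 8, 0 passed 1.5-fold downwards on both D168D arrays, as did 34 of all 10804 genes. The exception was mthl8, at -0.95 and 0.30.

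Gene lists were read for 57 pathways, families and cell types, and 13 of the 62 genes called at 1.5-fold belong to one. That is 21% of the called genes, and 1494 of all 10804 genes (13.8%) belong to one. Over all genes 0.5% were called higher and 0.074% lower, so a count of 0 or 1 called says little about a short list. Beside those called, the lists described are given by their highest and lowest members, and any further member was picked after its values were seen. Of the Hippo pathway, 29 genes were measured and Tao alone was called. The other 28 had means between -0.22 (Mob4, of the STRIPAK complex that opposes Hippo, at -0.19 and -0.26) and 0.29 (fj, a kinase that modifies the cadherins Fat and Dachsous, at 0.12 and 0.46). The core kinase genes lay near 0, with hpo at -0.13 and -0.01 and wts at 0.07 and -0.16. The co-activator gene yki was at 0.06 and -0.20, and the scaffold gene sav at -0.14 and -0.21. Of 11 measured target genes of Yorkie, 4 were above 0 on both arrays and 1 below, with a median of 0.05. They ranged from fj down to E2f1, a cell cycle transcription factor, at -0.03 and -0.09. The growth-control targets CycE (-0.07 and 0.19) and ex (-0.06 and 0.14) changed sign between the arrays.

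Of the kinases related to Tao, 0 were called, where 0.5% of all genes were called higher and 0.074% lower. Of 8 measured Ste20-family genes, the lowest was Pak3, at -0.09 and -0.30, and the highest after Tao was msn, at 0.17 and 0.04. The JNK and p38 pathways, which Ste20-family kinases can feed, had 0 of 19 members called and a median of 0.05. Their highest member was the TNF ligand gene egr, at 0.39 and 0.27, and their lowest the JNK phosphatase gene puc, a transcriptional readout of the pathway, at -0.08 and -0.45. Among 26 genes of tubulins and microtubule-binding proteins, 7 were above 0 on both arrays and 5 below, and 0 were called. The highest was the germ-line gamma-tubulin gene gammaTub37C, at 0.38 and 0.30, and the lowest futsch, at -0.19 and -0.20. The gene betaTub56D was at 0.68 on the Cy3-driven array and -0.66 on the Cy5-driven array. With 1 array per dye orientation, dye and array cannot be told apart here.

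Germ-line lists held more members above 0 than below 0 on both arrays, with 0 called (0.5% of all genes were called higher and 0.074% lower). In the piRNA pathway, which silences transposons in the germ line, 13 of 21 measured members were above 0 on both arrays and 4 below, against 24.4% and 21.5% of all genes. The list's median was 0.09, and it was 0.10 on each array, while the median over all genes was 0.01. The nuclear silencing factor gene nxf2 was highest, at 0.74 and 0.40, followed by mael, at 0.35 and 0.22, and the piRNA methyltransferase gene Hen1, at 0.28 and 0.31. The Piwi-family gene aub, whose protein is part of the germ plasm, was at 0.19 and 0.13, and piwi at 0.09 and 0.11. The lowest were the nuclease gene zuc, at -0.21 and -0.31, and the Tudor-domain gene krimp, at -0.13 and -0.28. The members of both signs therefore include genes of piRNA production, and 0 of the 21 passed 1.5-fold on both arrays.

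Of 35 measured genes of germ plasm and germ cell identity, 13 were above 0 on both arrays and 3 below, with a median of 0.09. The cyclin gene CycB, whose maternal RNA is held in the germ plasm, was highest, at 0.56 and 0.31. The gene osk, whose product assembles the germ plasm, was lowest, at -0.23 and -0.65, and its partner in RNA localisation, stau, was at -0.12 and -0.35. Germ cell migration genes had 7 of 19 members above 0 on both arrays, among them the lipid phosphatase genes wun (0.15 and 0.20) and wun2 (0.22 and 0.20). The highest was qm, a geranylgeranyl diphosphate synthase gene of isoprenoid synthesis, at 0.16 and 0.50, and the lowest was the Ras activator gene Sos, at -0.14 and -0.38.

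**Figure D4:**
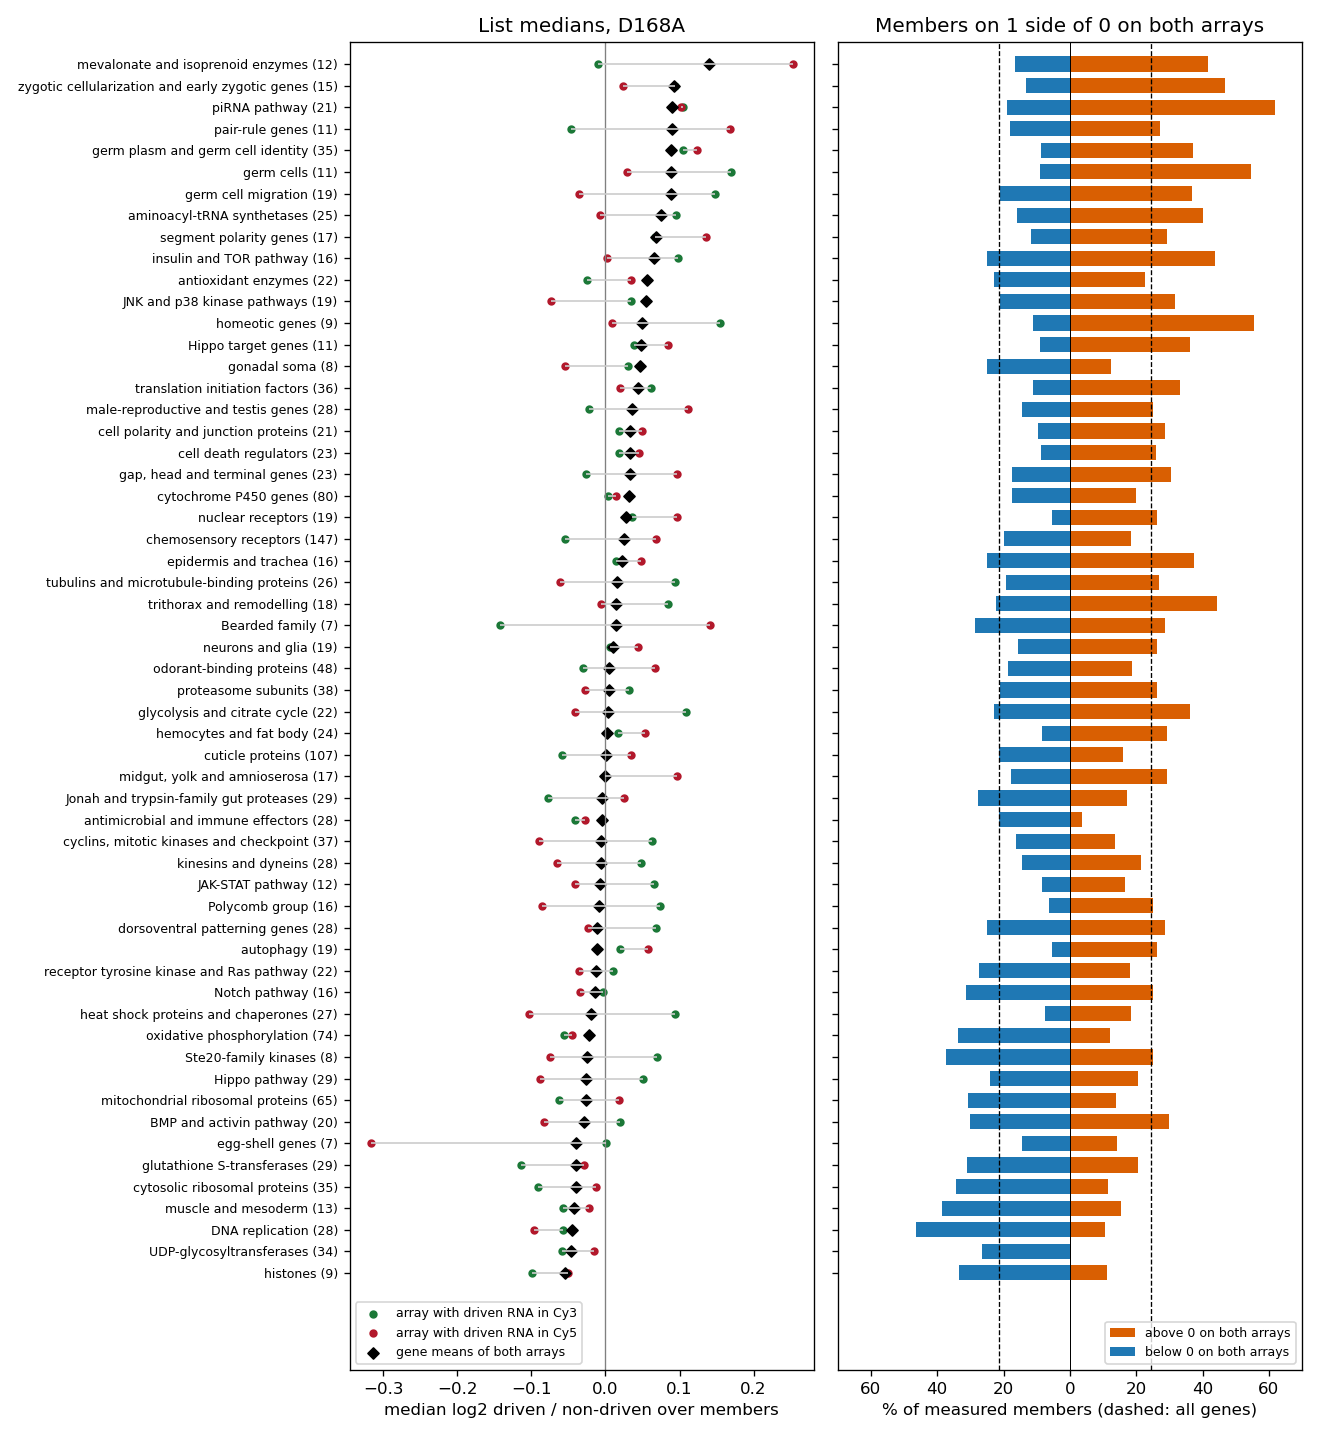
On the left, the median log2 ratio of each gene list with D168A is given over the mean of both arrays (diamond) and for each array (green with driven RNA in Cy3, red in Cy5), with the number of measured members in brackets. On the right, bars give the share of members above 0 (orange) and below 0 (blue) on both arrays, and dashed lines the shares over all genes, 24.4% and 21.5%. The piRNA list has the longest orange bar and the DNA replication list the longest blue one, while most lists have medians of opposite sign on the 2 arrays or lie near 0.

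Genes of the isoprenoid branch had the highest list median, 0.14 over 12 measured members, but its arrays differed, at -0.01 on the Cy3-driven one and 0.25 on the Cy5-driven one. Pmvk alone was called, through 1 of its probes, and 5 members were above 0 on both arrays and 2 below. Hmgs, for HMG-CoA synthase, was at -0.06 and 0.59, and Fpps, for farnesyl diphosphate synthase, was lowest, at -0.07 and -0.13.

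Among the lists of genes that pattern the early embryo, the called members were tll and hkb, of the termini. Of 23 gap, head and terminal genes, 7 were above 0 on both arrays and 4 below, and the median was 0.03. The gap gene gt, at 0.45 and 0.30, and the posterior determinant cad, at 0.34 and 0.26, were next. The lowest was trk, the precursor of the Torso ligand, at -0.37 and -0.33, and the receptor gene tor itself was at 0.01 and -0.20. Among trunk segmentation genes, the gap gene Kr was at -0.48 and 0.47, and of 11 pair-rule genes eve, the highest by mean, was at 0.01 and 0.79. The lowest pair-rule gene by mean was sob, at -0.38 and -0.01. Of the pair-rule genes, 3 were above 0 on both arrays and 2 below, with ftz at 0.31 and 0.43. Of 17 segment polarity genes, 5 were above 0 on both arrays and 2 below, from mid (-0.06 and -0.31) to the Pax gene gsb (0.17 and 0.80).

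In the dorsoventral list, 8 of 28 members were above 0 on both arrays, 7 below and 0 called, with a median of -0.01. The gene gd is not in that list. Over all genes, 24.4% were above 0 on both arrays and 21.5% below. Of the list's members, those above 0 on both arrays are named more fully here than the 7 below. The FGF ligand gene pyr was highest, at 0.30 and 0.88, followed by zen, the homeobox gene of the future amnioserosa, at 0.61 and 0.51, and dpp, the dorsal BMP ligand gene, at 0.43 and 0.52. The T-box genes Doc1 (0.47 and 0.25), Doc2 (0.24 and 0.05) and Doc3 (0.15 and 0.29) and the amnioserosa gene Ance (0.20 and 0.10) had smaller values, and cact, for the inhibitor of Dorsal, was at 0.41 and 0.30. The ventral factor genes twi (0.08 and -0.18) and sna (0.02 and -0.00) lay near 0, and the lowest was the FGF gene ths, at -0.04 and -0.24. Of 9 homeotic and related genes, 5 were above 0 on both arrays, among them Dfd at 0.09 and 0.93, and the lowest was tsh, at 0.16 and -0.40. The cellularization gene nullo was highest of 15 early zygotic genes, at 0.42 and 0.46, and 7 of the 15 were above 0 on both arrays; the lowest was E(spl)m5-HLH, at -0.22 and -0.13.

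Among 23 cell death regulators, Drep1 alone was called, and its relatives Drep2 (-0.05 and 0.09), Drep3 (0.02 and -0.11) and Drep4 (-0.03 and -0.01) lay near 0. The list's lowest member was skl, one of the genes that inactivate the caspase inhibitor Diap1, at -0.42 and -0.17. Another of that group, grim, was at 0.63 and 0.05. The caspase genes Dronc (-0.04 and 0.14) and Dcp-1 (0.10 and 0.25) had small values.

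Of 22 antioxidant genes, Qsox3 and Sod3 were called higher, 5 were above 0 on both arrays and 5 below. Their relatives did not move alike: Qsox1 was at 0.23 and 0.24, Qsox2 at 0.45 and -0.73, and Sod2, the mitochondrial superoxide dismutase gene, at 0.11 and -0.15. Cat, for catalase, was at -0.02 and -0.16, and the lowest member was the germ-line thioredoxin gene dhd, at -0.64 and -0.10. Of 29 glutathione S-transferases, GstE1 was called, 6 were above 0 on both arrays and 9 below, with GstD5 lowest at -0.52 and -0.82. The delta-class gene GstD1 was at -0.19 and -0.42 and GstT1 at -0.46 and -0.43, opposite to GstE1. Among 34 UDP-glycosyltransferases, 0 were above 0 on both arrays and 9 (26.5%) below, against 24.4% and 21.5% of all genes. The list's median was -0.05, with 11 of the 34 means above 0, and Ugt50B3 was lowest. Next lowest were Ugt37D1, at -1.15 and -0.36, and Ugt36E1, at -0.38 and -0.69, and the highest by mean was Ugt37C2, at -0.12 and 0.61.

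**Figure D5:**
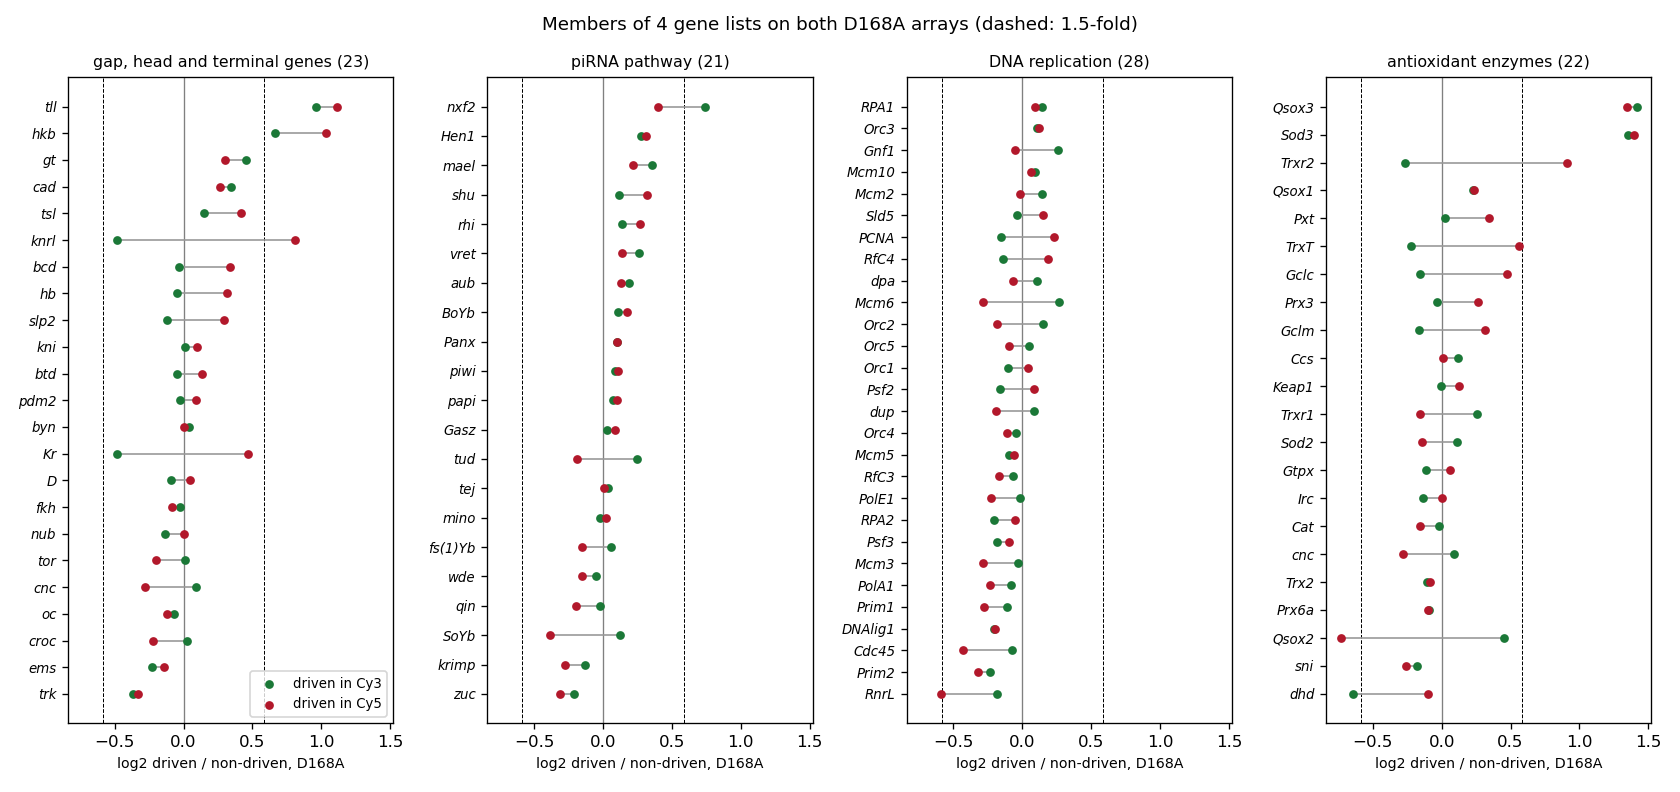
Each panel shows all measured members of 1 list, ordered by mean, with the log2 ratio on the Cy3-driven (green) and Cy5-driven (red) D168A array; dashed lines mark 1.5-fold. The genes tll and hkb, and Qsox3 and Sod3, lie beyond 1.5-fold on both arrays, while all piRNA and DNA replication genes lie inside it on at least 1.

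Lists for DNA replication, ribosomes and respiration held more members below 0 than above 0 on both arrays, and RpL37-1 was the only one of these genes called. Over all genes, 21.5% were below 0 on both arrays and 24.4% above. Of 28 replication genes, 13 (46.4%) were below 0 on both arrays and 3 above, with a median of -0.04 that was -0.06 and -0.10 on the single arrays. The lowest was RnrL, the large subunit gene of ribonucleotide reductase, at -0.18 and -0.59, followed by the primase gene Prim2, at -0.23 and -0.32, and the highest was RPA1, at 0.15 and 0.10. Of 35 cytosolic ribosomal protein genes, 12 were below 0 on both arrays and 4 above. Their median was -0.04 (-0.09 on the Cy3-driven and -0.01 on the Cy5-driven array). RpL37-1 was called lower, while its near copy RpL37-2 was at -0.09 and 0.01 (whether their probes separate the copies was not tested), and RpLP0 was highest, at 0.68 and 0.43. Mitochondrial ribosomal proteins (20 of 65 below, 9 above) and oxidative phosphorylation (25 of 74 below, 9 above) had medians of -0.03 and -0.02 and 0 called genes. For mitochondrial ribosomal proteins the median was -0.06 on the Cy3-driven array and 0.02 on the Cy5-driven one. Of 36 translation initiation factors, by contrast, 12 were above 0 on both arrays and 4 below, with eIF4A, the RNA helicase gene, highest by mean at 0.40 and 0.32 and eIF3h lowest at 0.03 and -0.33. Of 9 histone genes, His2A:CG31618 was lowest, at -0.66 and -0.49, and His3:CG31613 was at -0.43 and -0.44, while His1:CG31617 was at 0.34 and 0.19. Histone gene copies are nearly identical, so these probes may not separate them.

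Signalling pathways other than Hippo had 1 called member, bnl, among the ligands, receptors and relays of 22 receptor tyrosine kinase and Ras genes. Of that list 4 were above 0 on both arrays and 6 below, with the insulin receptor gene InR highest, at 0.06 and 0.34, and the inhibitory EGF ligand gene aos, a target of the pathway, at -0.40 and -0.50. Of 16 Notch pathway genes, 4 were above 0 on both and 5 below, and the lowest was the repressor gene E(spl)m3-HLH, a transcriptional target of Notch, at -0.42 and -0.58, while the presenilin gene Psn was highest, at 0.25 and 0.17. The JAK-STAT list had 2 of 12 above and 1 below, from the suppressor gene Socs16D (-0.17 and -0.42) to et, a receptor that dampens the pathway, at 0.46 and 0.66. Both ends of that list are thus negative regulators, and neither was called. In the BMP and activin list, 6 of 20 were above and 6 below, with dpp highest and cv lowest, at -0.22 and -0.24. Of 16 insulin and TOR genes, 7 were above and 4 below, from the transcription factor gene foxo (-0.08 and -0.29) to Tsc1 (0.30 and 0.20), for a subunit of the complex that restrains TOR.

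Among nuclear receptors, tll was called, and of the 19 measured 5 were above 0 on both arrays and 1 below; the ecdysone receptor gene EcR was lowest, at -0.07 and -0.40. Of 37 cyclins, mitotic kinases and checkpoint genes, 5 were above and 6 below, from Rca1, an inhibitor of the anaphase-promoting complex, at -0.18 and -0.24 to CycB. Of 21 polarity and junction genes, 6 were above and 2 below, with the scaffold gene Dlg5 at 0.51 and 0.45 and the adherens junction gene alpha-Cat at -0.28 and -0.23. Chromatin lists spread around 0, with 4 of 16 Polycomb group genes above and 1 below, and 8 of 18 trithorax and remodelling genes above and 4 below. The histone methyltransferase gene E(z) was highest of the Polycomb group, at 0.21 and 0.17, and Scm lowest, at 0.14 and -0.35. Of the trithorax list, the demethylase gene Utx was highest, at 0.20 and 0.16, and polybromo lowest, at -0.52 and 0.25.

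Families that mostly serve later stages were called about as rarely as all genes, of which 0.5% were called higher and 0.074% lower. Of 147 chemosensory receptors Gr98b alone was called, 27 were above 0 on both arrays and 29 below, and the lowest was Or85a, at -0.11 and -1.03. Of 80 cytochrome P450 genes Cyp12b2 alone was called, 16 were above and 14 below, and the extremes were Cyp318a1 (0.18 and 1.51) and Cyp4p1 (-0.80 and -0.54). Of 107 cuticle protein genes 0 were called, and the highest and lowest by mean were Cpr49Ah, at -0.46 and 1.90, and Cpr76Bc, at -0.08 and -0.60. Of 28 antimicrobial and immune effector genes, 1 was above 0 on both arrays and 6 below, from Drsl2 (0.45 and -0.96) to BomS2 (-0.94 and 1.43). The highest means in the last 3 of these families thus rest on the Cy5-driven array.

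In each of the following lists 0 members were called, where 0.5% of all genes were called higher and 0.074% lower. Motor proteins had 6 of 28 above 0 on both arrays and 4 below, from Dhc98D (-0.02 and -0.45) to Dhc93AB (0.20 and 0.46), both for dynein heavy chains. Aminoacyl-tRNA synthetases had 10 of 25 above and 4 below, from ArgRS-m (-0.29 and -0.25) to ProRS-m (-0.07 and 0.54). Genes of glycolysis and the citrate cycle had 8 of 22 above and 5 below, and 2 glycolytic enzymes mark both ends, Tpi (-0.49 and -0.26) and Pfk (0.36 and 0.18). Heat shock proteins and chaperones had 5 of 27 above and 2 below, from Hsp26 (-0.32 and -0.29) to Hsp60C (0.16 and 0.64). In the Bearded family of Notch regulators, 2 of 7 were above and 2 below, from E(spl)malpha-BFM (-0.22 and -0.30) to Brd (0.12 and 0.76).

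The label of pole cells could not be checked by these ratios, since driven and non-driven cells were sorted alike. No spot intensity was used, so the level of a marker on an array is unknown. Marker ratios show only whether a marker differed between driven and non-driven cells. Of 11 germ cell markers, 6 were above 0 on both arrays and 1, osk, below, with a median of 0.09 (0.17 on the Cy3-driven and 0.03 on the Cy5-driven array). Markers of other embryonic cells had list medians between -0.04 for muscle and mesoderm and 0.05 for the gonadal soma. In muscle and mesoderm, 5 of 13 markers were below 0 on both arrays and 2 above, from sns, for a myoblast fusion receptor, at -0.11 and -0.29 to the myogenic factor gene nau, whose arrays contradicted each other at -0.79 and 1.33. In epidermis and trachea, 6 of 16 were above 0 on both and 4 below, with knk, a chitin-organising gene, highest at 0.58 and 0.61 and just short of 1.5-fold on the Cy3-driven array. Neurons and glia had 5 of 19 above and 3 below, from nrv3 (-0.06 and -0.42) to SoxN (-0.09 and 0.77), hemocytes and fat body 7 of 24 above and 2 below, from gcm2 (0.25 and -0.98) to the scavenger receptor gene Sr-CI (0.61 and 0.21). The gonadal soma had 1 of 8 above and 2 below, from Sox100B (-0.05 and -0.31) to foi (0.46 and -0.21). Among 17 markers of midgut, yolk and amnioserosa, 5 were above and 3 below, and hkb was the only one called. The terminal and dorsal genes named for positive values are active in somatic cells of the early embryo. Their lists had medians of 0.03 and -0.01. The part of a change in sorted cells in the values of these genes was not tested.

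The genes highest in D168A were spread over the genome. By the RefSeq annotation, the 54 genes at least 1.5-fold higher comprised 16 of 2228 measured genes on 2R (0.718%), 10 on 2L, 10 on 3L, 9 of 2783 on 3R (0.323%), 9 on X and 0 of 52 on chromosome 4. Medians over all genes of an arm lay between 0.01 on 3R and 0.04 on chromosome 4. Among the 62 called genes, 1 pair was adjacent in the annotation, CG30440, higher at 0.84 and 0.81, and Ugt50B3, lower.

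The genes that differed most between the dye orientations show how large a dye or array difference can be. Again with the Cy3-driven array first, sphinx1 was at 0.86 and -2.76, CG15635 at 0.94 and -1.86, and CG11663 at -0.29 and -2.95. CG11663 thus had the lowest mean of all genes, -1.62, without passing 1.5-fold on the Cy3-driven array. CG7368 (0.49 and -1.93) and CG18469 (0.94 and -1.43) completed the 5 that were lower in Cy5. In the other direction lay CG31327 (-1.71 and 1.71), CG17404 (-1.35 and 1.91), knon (-1.12 and 1.99), Cpr47Ec (-1.03 and 1.66) and CG14400 (-0.87 and 1.81). All 10 were measured by 1 probe each.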

How the data were processed

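Per the submitters' processing notes, the arrays were quantified with Agilent Feature Extraction 7.1. The authors deposited 1 log10 ratio per feature and array. How background, dye bias and centring were handled is not given in the sources used here. Base 10 was taken from that software and from the limit of 2 that the values reach in either direction. Signs were used as deposited and read as driven over non-driven on both arrays, which the files do not state, and values were converted to log2. Features with 1 gene symbol in the platform annotation (17328 of 22575) were averaged per gene, then over the 2 arrays. By gene ID, 17324 matched RefSeq (Release 6 plus ISO1 MT) and 0 symbols changed. Array medians over genes were 0.00078 and 0.0140. Intensities were not used, so the signal over background is not known, and having only 2 arrays limits the precision. Nothing in the labels says that cells were collected more than once.

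Genes named were Tao, those passing 2-fold on both arrays, the next 12 higher by the weaker array and those at least 1.5-fold lower. Also named were the 5 that differed most between the arrays in each direction and, per list described, the called, highest and lowest members. The members and the gene lists were chosen with earlier results of these data known. From the lists, 6 wrongly matched names were removed after the values were seen. Alternatives changed centring, probe summary, probe agreement, zeros, annotation, threshold, dye and the rule. Python 3.11.15, numpy 2.4.6, pandas 2.3.3 and matplotlib 3.10.9 were used.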

Additional observations from a re-analysis of the deposited data

Results flagged for a closer look

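Of the 54 genes at least 1.5-fold higher with D168A, 3 were below 0 on both D168D arrays: CG10384, Gr98b and CG4714. Genes outside the 54 with opposite signs in the 2 forms were not counted. The D168A mean exceeded the D168D mean by 1.63 for CG10384, 1.58 for Gr98b and 2.36 for CG4714 on the log2 scale. With 1 replicate per form these differences were not tested, and each gene rests on 1 probe. Because the genes were chosen by their high D168A values, a larger D168A mean is built into that choice.

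Some features left out of the gene values also passed 2-fold. Of 4921 features with no gene symbol, 13 (0.264%) passed 2-fold upwards on both arrays of D168A and 0 downwards, against 28 (0.162%) and 4 of the 17328 features with 1 symbol. The highest of the 13 was at 3.11 and 3.03, above Tao. A further 321 unnamed features differed over 10-fold in opposite directions on the 2 arrays, which 0 of the features with 1 symbol did. What the unnamed features measure, and whether control spots are among them, is not known here. The shares of named and unnamed features may therefore compare unlike sets.

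A probe with 3 gene symbols had a mean of 3.62 (3.63 and 3.62), and 3.24 and 2.66 with D168D. The annotation does not say which of the 3 genes it measures, so none is named.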

How the results depend on the processing

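As reported, 16 genes were at least 2-fold higher, 1 lower, 54 at least 1.5-fold higher and 8 lower. Centring each array gave 16, 1, 52 and 8; the median over probes, leaving out features at 0 and adding probes with several symbols each gave 16, 1, 54 and 8. Where every probe had to pass, the counts were 12, 0, 42 and 5, and with 2 or more probes that all pass, an alternative chosen after seeing the data, 2, 0, 7 and 2. Genes with 2 or more probes alone gave 6, 1, 19 and 5, and single probes 28, 4, 115 and 24. A 3-fold threshold left 5 higher and 0 lower. Judged on the pair's mean alone the counts were 32, 3, 167 and 35, the Cy3-driven array alone 42, 24, 173 and 132, and the Cy5-driven array alone 214, 51, 700 and 277. With the dye component of the D168D pair subtracted, 12 were higher, 0 lower, 35 at least 1.5-fold higher and 5 lower. That setting kept 10 of the 17 genes past 2-fold and 29 of the 62 past 1.5-fold, and CG11626, CG32488, CG7653, GstE1, Pmvk, Qsox3 and Ugt50B3 missed 2-fold under it; the cause was not tested. Of 133 named genes, 3 moved by more than the distance of each array from their mean under the median over probes (bnl to -0.76, E2f1 to -0.15, Dlg5 to 0.62). Of 57 list medians, 7 moved on the Cy3-driven array alone and 6 on the Cy5-driven array alone. No paired analysis was possible because each form has 1 replicate. The number of arrays and the unknown signal over background limit what can be read from single genes.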
